A study of Mus musculus with 9 samples.

Results

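Ubiquitin-specific proteases, written USP for the protein and Usp for the mouse gene, were described in neutrophils taken from 3 tissues of the mouse. The members were every gene whose symbol in the deposited table is Usp followed directly by a digit, and 1 further symbol of this form was left out by the rule. That gave 55 of the 24532 genes of the table, and reads of a gene's transcripts were added up per gene. Of the 55, 54 are proteases by name, while Usp6nl codes for a Rab GTPase-activating protein named for its likeness to the start of USP6. Neutrophils of wild type C57BL/6 mice had been sorted by flow cytometry from bone marrow, blood and lung, with 3 biological replicates a tissue and 9 polyA libraries in all. No group carried a transgene, deletion or treatment in the labels, and the sources used here give no age, sex or pooling of animals. The labels do not say whether replicates came from separate mice, so p-values measure the spread between these samples, part of which may be technical.

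Ubiquitin is a small protein that is joined to other proteins as single units or chains, marking them for destruction by the proteasome or changing where and how they act. USPs are cysteine proteases that remove it again: a cysteine in the active site attacks the bond between ubiquitin and its target. They form the largest family of deubiquitinases, and single members serve particular places, such as histones, the proteasome, endosomes or the outer membrane of mitochondria. In neutrophils and other innate cells, several are known as regulators of signalling downstream of pattern recognition and cytokine receptors.

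The coding sequence around the active-site cysteine is shown for 5 members whose levels the results turn on, since it is the feature that defines the family and since Usp39 departs from it. Each stretch of 45 bases comes from the GENCODE M21 transcript, 5′ to 3′, with the codon at the position of the cysteine in capitals.
Usp46: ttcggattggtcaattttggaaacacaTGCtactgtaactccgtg
Usp12: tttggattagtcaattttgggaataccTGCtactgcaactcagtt
Usp2: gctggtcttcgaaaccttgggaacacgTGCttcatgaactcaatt
Usp37: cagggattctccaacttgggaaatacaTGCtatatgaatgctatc
Usp39: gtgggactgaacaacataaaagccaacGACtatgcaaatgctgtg
The codon is residue 44 of Usp46, 48 of Usp12, 290 of Usp2, 350 of Usp37 and 233 of Usp39 in these transcripts. Usp46 and its paralog Usp12 share 37 of the 45 bases. A cysteine codon stood at this position in 52 members. Usp39, long known as a splicing factor without protease activity, has GAC, an aspartate codon. No such stretch was found in Usp6nl, and the stretch of Usp14 is not shown.

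For Usp37 and Usp2 the data also bear on where transcription starts, because the deposited table counts their RefSeq variants separately. The 250 bases before the start of variant 2 of each gene are printed from RefSeq, build GRCm38.p6, 5′ to 3′ on the strand of the gene. Capitals mark GGGCGG, the GC box, on either strand (CCGCCC when read on the other strand).
Usp37, chr1:74505822-74506071, minus strand: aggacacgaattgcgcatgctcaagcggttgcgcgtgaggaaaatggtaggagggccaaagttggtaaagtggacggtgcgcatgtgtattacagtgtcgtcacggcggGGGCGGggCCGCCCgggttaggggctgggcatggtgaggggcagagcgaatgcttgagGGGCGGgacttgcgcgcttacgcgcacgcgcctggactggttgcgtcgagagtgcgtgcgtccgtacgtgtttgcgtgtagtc
Usp2, chr9:44084670-44084919, plus strand: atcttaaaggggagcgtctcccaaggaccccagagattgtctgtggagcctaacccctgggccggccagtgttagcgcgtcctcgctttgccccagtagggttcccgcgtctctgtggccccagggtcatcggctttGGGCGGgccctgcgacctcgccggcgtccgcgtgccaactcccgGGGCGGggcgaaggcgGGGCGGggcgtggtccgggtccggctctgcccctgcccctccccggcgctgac
Both stretches hold 3 GC boxes. A RefSeq window of 300 bases around the start was matched for 43 members, of which 33 were tested. Of the windows of tested members 75.8% held a GC box, against 62.2% of those of all tested genes and 35.9% of all windows. CCGGAAG, the core of many ETS sites, stood in 24.2%, 17.8% and 9.12%, CCAAT in 18.2%, 39.0% and 37.9%, and TATAAA in 6.06%, 7.55% and 14.2%. With the 10 untested members added, the shares of member windows were 62.8%, 18.6%, 32.6% and 11.6% in that order of motifs. Motifs were searched on both strands and are letters only, and the shares were not tested.

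Libraries held 42045548 to 56796219 reads, and members took 0.195% to 0.269% of them. Levels are given in CPM, the reads of a gene relative to the library's total with edgeR's TMM scaling, in replicate order of each tissue. A floor of 3 reads corresponds to 0.0521 to 0.0767 CPM on this scale and covers counting error only. The labelled cell type was checked on 8 neutrophil markers, among them S100a8, Ly6g and Cxcr2: all were found, and they summed to 81400 to 119000 CPM in bone marrow, 29800 to 43100 in blood and 20800 to 38400 in lung. Markers of other cells moved between libraries. Fibroblast markers (6 of 6 found) summed to 1500, 1280 and 89.9 CPM in the lung libraries and at most 155 elsewhere (bone marrow replicate 3). Lung epithelium markers (7 of 7) summed to 880, 268 and 62.4 CPM in lung. They summed to 7.15, 5.45 and 70.4 in bone marrow and 0.476 to 3.74 in blood, so bone marrow replicate 3 lay above lung replicate 3. B cell markers (7 of 7) were lowest in replicate 3 of every tissue, at 26.6 to 59.5 CPM against 59.3 to 437 in the other replicates. So were T and NK cell markers (8 of 8), at 13.2 to 26.8 against 29.0 to 82.7, and endothelium markers (6 of 6), at 19.7 to 26.6 against 20.5 to 94.5. The erythroid and cycling precursor sums given below, and the number of genes with at least 10 reads, were also lowest in replicate 3 of every tissue. Monocyte markers (6 of 6) summed to 1710 to 2290 CPM in bone marrow, 1760 to 2280 in blood and 2340, 3010 and 3540 in the lung libraries. Macrophage markers (6 of 7 found) summed to 48.5 to 66.4 CPM in bone marrow, 95.6 to 114 in blood and 176 to 258 in lung. Erythroid markers (7 of 7) summed to 705 to 1100, 327 to 689 and 32.6 to 165 CPM in the same order, and markers of cycling precursors (7 of 7) to 31.1 to 303, 1.65 to 4.92 and 24.6 to 44.5. None of these listed genes was at 0 in all libraries. A sum and the median of its markers could differ in direction. For monocyte markers the median log2 fold change in lung against blood was -0.61, with 1 of 6 called higher. For macrophage markers in blood against bone marrow the median was -0.93, with 1 of 6 called higher. Lung replicate 3 was the highest of the lung libraries in 24 of the tested members (57.1%, against 39.8% of all tested genes). It stands apart from lung replicates 1 and 2, and lung results are given below with replicate 3 as the only lung library, a setting chosen after these sums were seen, as well as with all 3. In that setting the spread of a lone library is assumed to be that of the other tissues. Shares of all tested genes were not computed for it, and TMM was the only scaling used. The TMM factor was 1.19, 1.14 and 0.791 in the lung libraries, and a lower factor gives a higher CPM for the same share of reads. Before scaling, members took 0.2113%, 0.231% and 0.2219% of the reads there, so replicate 3 was not the highest. In bulk RNA, fewer cells of a type and less RNA per cell cannot be told apart.

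Of the 55 members, 42 had enough reads to be tested among 13510 genes. The other 13 were all but silent in these counts. Usp9y, Usp17la, Usp17lb, Usp17lc, Usp17ld, Usp26, Usp29 and Usp51 had 0 reads in every library, and the rest reached at most 21 reads in a library: Usp13, Usp43, Usp44, Usp50 and Usp17le. Per transcript length, as RPKM, the highest level was that of Usp19, an enzyme anchored in the endoplasmic reticulum, at 53.6 ± 4.74 in bone marrow, 55.7 ± 4.08 in blood and 61.3 ± 16.7 in lung (SD, n = 3). Usp32, a protease of Golgi and endosomal membranes, followed with 50.6 ± 0.941, 47.3 ± 4.88 and 33.2 ± 12.5. Averaged over the 9 libraries, Usp38 (36.2), Usp7 (35.2), Usp4 (33.8) and Usp25 (27) came next on this per-length scale, and their order changed between tissues. In lung, Usp38 (59.1 ± 24.1) and Usp19 lay within each other's spread.

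**Figure D1:**
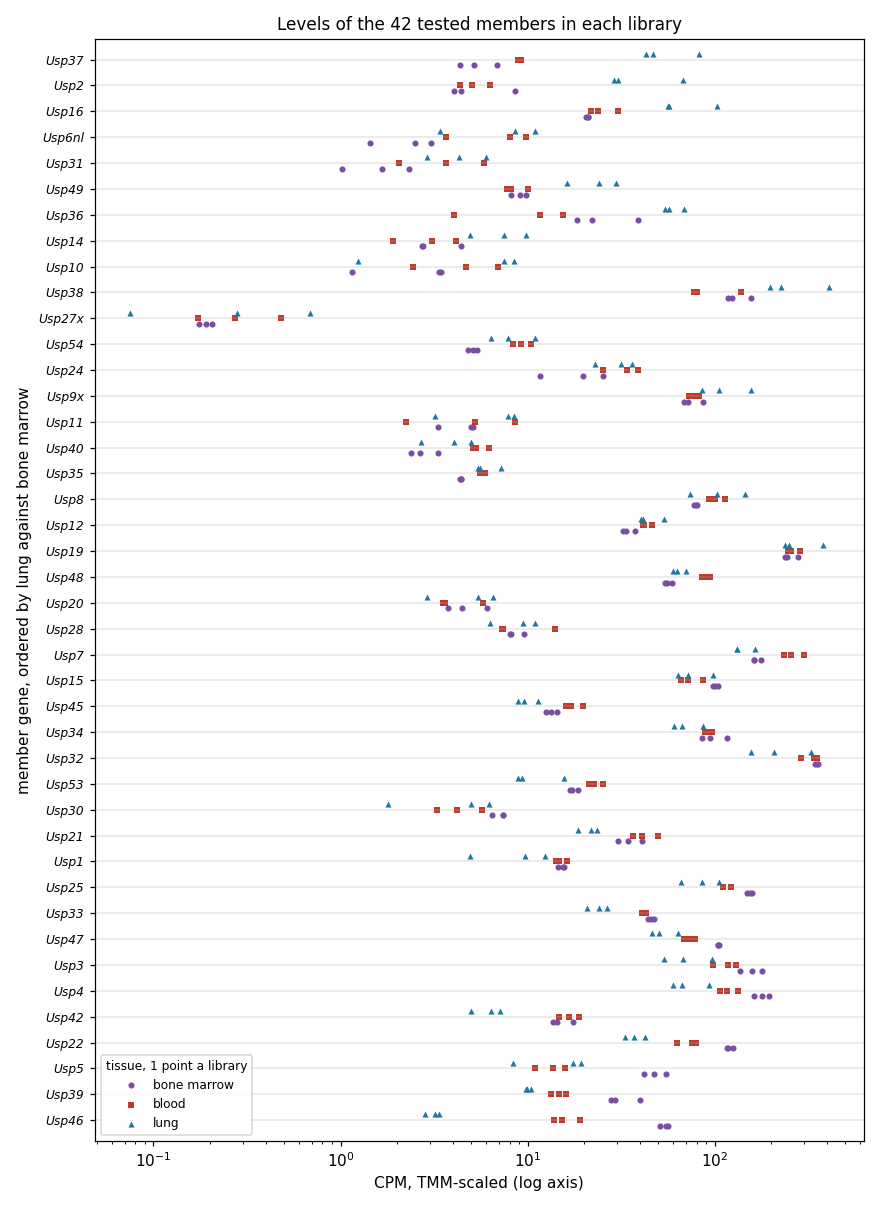
Level of each of the 42 tested members in the 9 libraries: CPM on a log axis, 1 point a library, circles for bone marrow, squares for blood and triangles for lung. Members are ordered from the largest rise in lung against bone marrow at the top (Usp37) to the largest fall at the bottom (Usp46), and the levels span from under 1 CPM (Usp27x) to 406 CPM (Usp38 in lung replicate 3).

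In blood against bone marrow, 4 members were higher and 5 lower by edgeR (quasi-likelihood, p adjusted over all tested genes by Benjamini-Hochberg, threshold 0.05), the test behind every call and adjusted p below. That is 9.52% and 11.9% of the tested members, against 8.34% and 13.1% of all tested genes. Usp7, Usp40, Usp48 and Usp54 were higher in blood, and Usp5, Usp22, Usp39, Usp46 and Usp47 were lower. The median log2 fold change was 0.04 over the tested members and -0.05 over all tested genes. Libraries of the 2 tissues did not overlap in 24 members (57.1%), against 45.4% of all tested genes. The number higher fell to 1 without any 1 of the bone marrow libraries or blood replicate 1 or 2, to 2 without blood replicate 3, and was 7 without lung replicate 3 or with the replicate number as a block. The number lower was 3 without any 1 of the blood libraries. Calls of Usp5, Usp39, Usp46 and Usp48 held in every alternative run.

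In lung against blood, 7 members were higher and 12 lower, or 16.7% and 28.6%, against 13.2% and 15.7% of all tested genes. Higher in lung were Usp2, Usp14, Usp16, Usp36, Usp37, Usp38 and Usp49. Lower were Usp4, Usp7, Usp21, Usp22, Usp33, Usp39, Usp42, Usp45, Usp46, Usp47, Usp48 and Usp53. The median log2 fold change was -0.06 over members and 0.05 over all genes, and 25 members (59.5%) had no overlap between the tissues, against 41.6% of all genes. The number lower depended on the blood and lung libraries: it was 7, 7 and 6 without blood replicates 1, 2 and 3. With lung replicate 3 as the only lung library it was 4 (Usp1, Usp42, Usp45 and Usp46), while the number higher was 9, with Usp8, Usp9x and Usp19 added and Usp14 lost.

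In lung against bone marrow, 9 members were higher and 12 lower, or 21.4% and 28.6%, against 15.6% and 22.6% of all tested genes. Higher were Usp2, Usp6nl, Usp14, Usp16, Usp31, Usp37, Usp38, Usp49 and Usp54, and lower were Usp3, Usp4, Usp5, Usp21, Usp22, Usp25, Usp33, Usp39, Usp42, Usp46, Usp47 and Usp53. The median log2 fold change was 0.12 over members and 0.06 over all genes, and the median absolute log2 fold change was 0.80 in both. Of the tested members, 29 (69.0%) did not overlap between the tissues, against 49.0% of all genes. The number higher was 4 without bone marrow replicate 2 or 3 and 5 without lung replicate 2. With lung replicate 3 alone for lung, 10 were higher and 7 lower, the latter Usp1, Usp5, Usp22, Usp30, Usp39, Usp42 and Usp46. With lung replicate 3 alone, the shares of all tested genes were not computed in either lung comparison. Whether that change in counts is particular to the members was therefore not tested. The comparisons share libraries, so their counts are not independent. In all, 26 tested members were called in at least 1 comparison, and Usp22, Usp39, Usp46 and Usp47 in all 3.

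**Figure D2:**
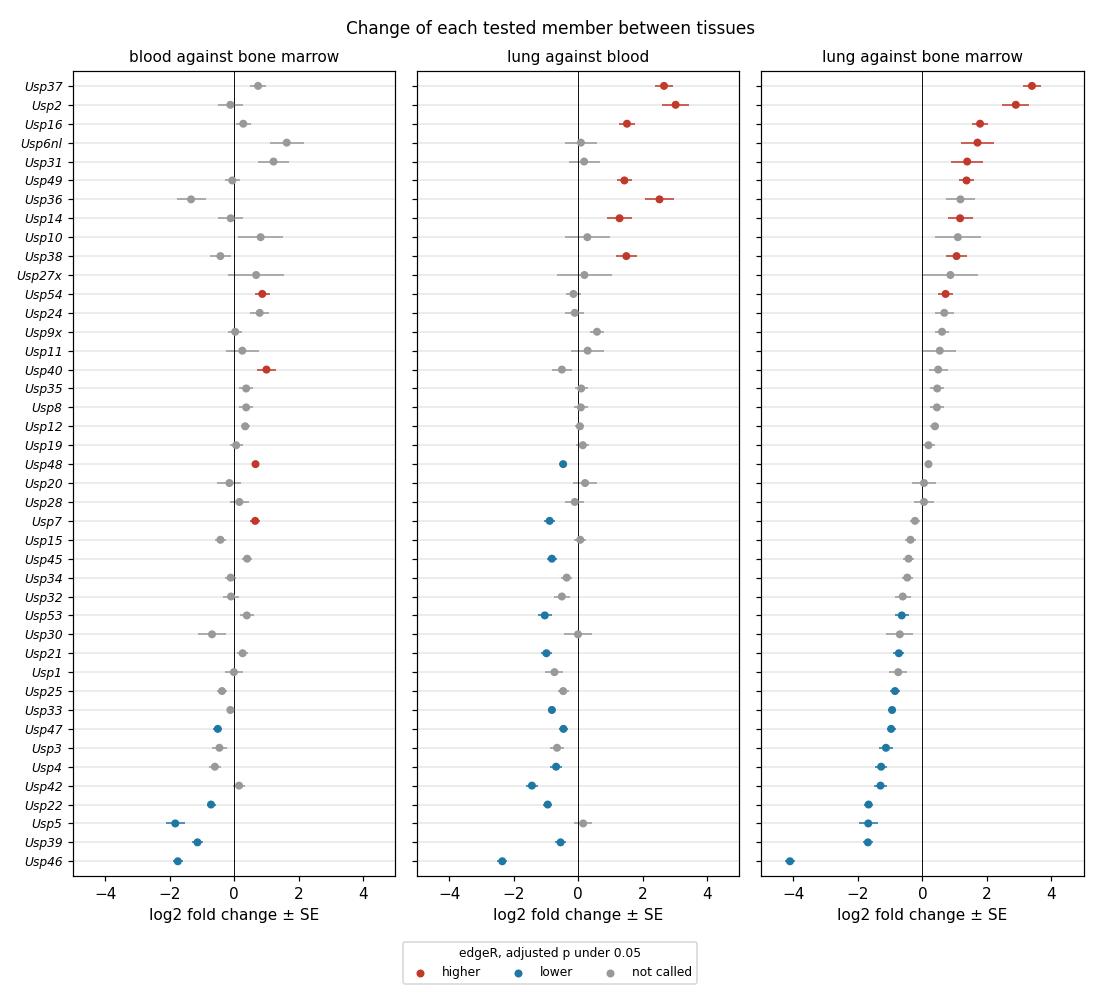
Log2 fold change ± SE of each tested member in the 3 comparisons, in the same order of members; red is higher and blue lower at an adjusted p under 0.05 by edgeR, grey is not called. Lung against bone marrow runs from -4.11 (Usp46) to 3.40 (Usp37), and blood against bone marrow stays between -1.83 (Usp5) and 1.63 (Usp6nl, not called).

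Usp46 had the largest fall of the family: it was lower in blood than in bone marrow and lower again in lung. Its protein works with the WD-repeat protein WDR48, as those of Usp12 and Usp1 do, which switches on their activity. Usp46 (Entrez gene 69727, chromosome 5, 74000038 to 74068411 in mm10) stood at 50.7, 54.9 and 56.5 CPM in bone marrow, 13.9, 15.3 and 19.0 CPM in blood and 2.81, 3.35 and 3.20 CPM in lung. The tissues did not overlap, and the bone marrow and lung libraries lay close together within each tissue. The log2 fold change was -1.75 ± 0.15 in blood against bone marrow (adjusted p = 1.03e-04), -2.36 ± 0.15 in lung against blood (1.29e-04) and -4.11 ± 0.16 in lung against bone marrow (5.38e-06), the last a 17.3-fold lower level. The latter pair of values was -2.15 and -3.80 with lung replicate 3 alone for lung. Fibroblast markers summed to 1500, 1280 and 89.9 CPM in the lung libraries in replicate order, and precursor markers to 303, 148 and 31.1 CPM in bone marrow. Erythroid markers were lower in the same order of tissues as Usp46, and the part of these markers in the result was not tested. The antisense genes Usp46os1 and Usp46os2 overlap 4.62% of its exonic bases.

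The paralog Usp12 did not follow Usp46. It stood at 32.2, 33.4 and 37.5 CPM in bone marrow, 46.4, 41.6 and 42.1 in blood and 40.3, 41.5 and 53.3 in lung. Bone marrow was the lowest tissue with no overlap, but no comparison passed: lung against bone marrow gave 0.39 ± 0.14 (adjusted p = 0.0539), and 0.91 with lung replicate 3 as the only lung library, which passed (0.00477). With the replicate number as a block the value of 0.39 passed as well (0.0387). Per length, Usp46 was above Usp12 in bone marrow (16.8 ± 0.927 against 8.04 ± 0.653) and below it in lung (0.968 ± 0.0856 against 10.5 ± 1.69). Usp1, which removes ubiquitin from the repair proteins PCNA and FANCD2, stood at 14.5 to 15.7 CPM in bone marrow, 14.2 to 16.2 in blood and 4.94 to 12.4 in lung, and no comparison passed, except that Usp1 was lower in lung with lung replicate 3 alone (-1.43 against blood, 0.00403, and -1.35 against bone marrow, 0.00326). Wdr48 itself was not called in any comparison.

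Among the enzymes of free ubiquitin and the proteasome, Usp5 was lower in blood and lung than in bone marrow, and Usp14 was higher in lung. USP5 takes apart ubiquitin chains that are attached to no protein, and so returns single ubiquitin to the pool. Usp5 (chromosome 6, 124815019 to 124829484) was at 41.9, 47.3 and 54.6 CPM in bone marrow, 13.7, 15.9 and 10.9 in blood and 19.2, 17.4 and 8.32 in lung. Every bone marrow library was above every other library, while blood and lung overlapped. Usp5 fell by 1.83 ± 0.30 on the log2 scale in blood (adjusted p = 0.00314) and by 1.68 ± 0.30 in lung against bone marrow (0.00231). The latter value was -2.25 with lung replicate 3 alone. Its paralog Usp13 was not tested and had reads only in lung replicate 1 (10 reads).

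USP14 sits on the proteasome and trims ubiquitin from proteins about to be degraded. Usp14 was low, at 4.41, 2.76 and 2.71 CPM in bone marrow, 3.07, 4.15 and 1.90 in blood and 7.5, 9.85 and 4.89 in lung. All lung libraries were above all others, with log2 fold changes of 1.28 ± 0.39 against blood (adjusted p = 0.0360) and 1.17 ± 0.39 against bone marrow (0.0411). Neither call was firm. Against blood it was lost without bone marrow replicate 2, blood replicate 1 or 3, or lung replicate 1 or 2, and against bone marrow without bone marrow replicate 2 or 3 or lung replicate 1 or 2. In lung replicate 3 alone the values were 0.88 (0.255) and 0.84 (0.252). Usp14 was lowest in replicate 3 of every tissue. The same held for the marker sums of B cells, T and NK cells, erythroid cells, endothelium and cycling precursors, and for the number of genes with at least 10 reads. The part of any of these in it was not tested. Of its exonic bases, 26.0% overlap other genes, chiefly Thoc1.

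Of 9 listed members that act on histones or chromatin complexes, 7 were tested: 1 rose and 1 fell in blood against bone marrow, and 2 rose and 3 fell in lung in each of its comparisons. Over all tested genes, 8.34% were higher and 13.1% lower in the first comparison, 13.2% and 15.7% in lung against blood, and 15.6% and 22.6% in lung against bone marrow, and 7 genes are too few to set apart from these shares. Usp22, the ubiquitin protease of the SAGA coactivator complex, was at 116, 118 and 125 CPM in bone marrow, 79.9, 63.0 and 75.5 in blood and 33.3, 37.2 and 42.2 in lung. The tissues were fully apart in this order. The log2 fold change was -0.72 ± 0.14 in blood against bone marrow (adjusted p = 0.00721), -0.95 ± 0.14 in lung against blood (0.00180) and -1.67 ± 0.14 in lung against bone marrow (5.67e-05). The call in blood against bone marrow was lost without any 1 of the blood libraries (0.0967 to 0.197). Lung against blood was -0.61 (0.0835) and lung against bone marrow -1.23 (0.00528) when only lung replicate 3 was used for lung.

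Usp16 rose in lung. Its product removes ubiquitin from histone H2A and takes part in maturation of the small ribosomal subunit. Usp16 stood at 20.5, 21.1 and 20.9 CPM in bone marrow, 30.4, 23.8 and 21.7 in blood and 57.2, 56.5 and 103 in lung. Lung libraries lay above all others, with replicate 3 highest. Usp16 rose by 1.51 ± 0.24 on the log2 scale against blood (adjusted p = 0.00255) and 1.79 ± 0.24 against bone marrow (5.84e-04). These were 2.20 and 2.57 with lung replicate 3 alone. That library had the lowest fibroblast and epithelial marker sums of lung and the highest monocyte marker sum (3540 CPM). The median log2 fold change of the monocyte markers in lung against blood was -0.61. The part of these markers was not tested.

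Usp7, which controls p53 through its ubiquitin ligase MDM2 and also serves chromatin complexes, was highest in blood. It stood at 163, 162 and 177 CPM in bone marrow, 256, 236 and 299 in blood and 131, 132 and 164 in lung. Blood was above both other tissues without overlap, and lung and bone marrow overlapped. The log2 fold change was 0.65 ± 0.16 in blood against bone marrow (adjusted p = 0.0180) and -0.89 ± 0.16 in lung against blood (0.00399). The call in blood against bone marrow was lost without any 1 of the bone marrow or blood libraries (0.0616 to 0.148). The call in lung against blood was lost without blood replicate 3 (0.0724) and with lung replicate 3 alone (-0.50, 0.171).

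Usp21 and Usp3, both histone H2A proteases, were lower in lung. Usp21 was at 30.5, 34.4 and 40.8 CPM in bone marrow, 40.7, 36.8 and 49.5 in blood and 18.6, 21.8 and 23.5 in lung. Lung lay below both other tissues, with -0.99 ± 0.17 against blood (adjusted p = 0.00314) and -0.73 ± 0.17 against bone marrow (0.00870). The second call was lost without blood replicate 1 (0.0595). Usp3 did not overlap between the tissues, with 159, 137 and 180 CPM in bone marrow, 118, 98.2 and 130 in blood and 53.5, 67.9 and 97.2 in lung, and only lung against bone marrow passed (-1.13 ± 0.23, 0.00497). Usp21 gave -0.68 (0.114) against blood and -0.31 (0.409) against bone marrow with lung replicate 3 alone, and Usp3 gave -0.44 (0.247) against bone marrow, so none of these passed there.

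Usp49, which acts on histone H2B, was higher in lung. It stood at 9.85, 8.10 and 9.13 CPM in bone marrow, 8.13, 7.77 and 10.1 in blood and 16.3, 24 and 29.7 in lung. The lung libraries were above all others, at 1.43 ± 0.23 against blood (adjusted p = 0.00260) and 1.37 ± 0.23 against bone marrow (0.00176). Calls held without any 1 library and with lung replicate 3 alone (1.95 and 1.99). Of the exonic bases of Usp49, 52.3% overlap Tomm6 and a predicted gene, and the sources used here give no strand setting for the counting, so its reads may include theirs. Usp27x stayed under 1 CPM in every library, and Usp44 and Usp51 were not tested.

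**Figure D3:**
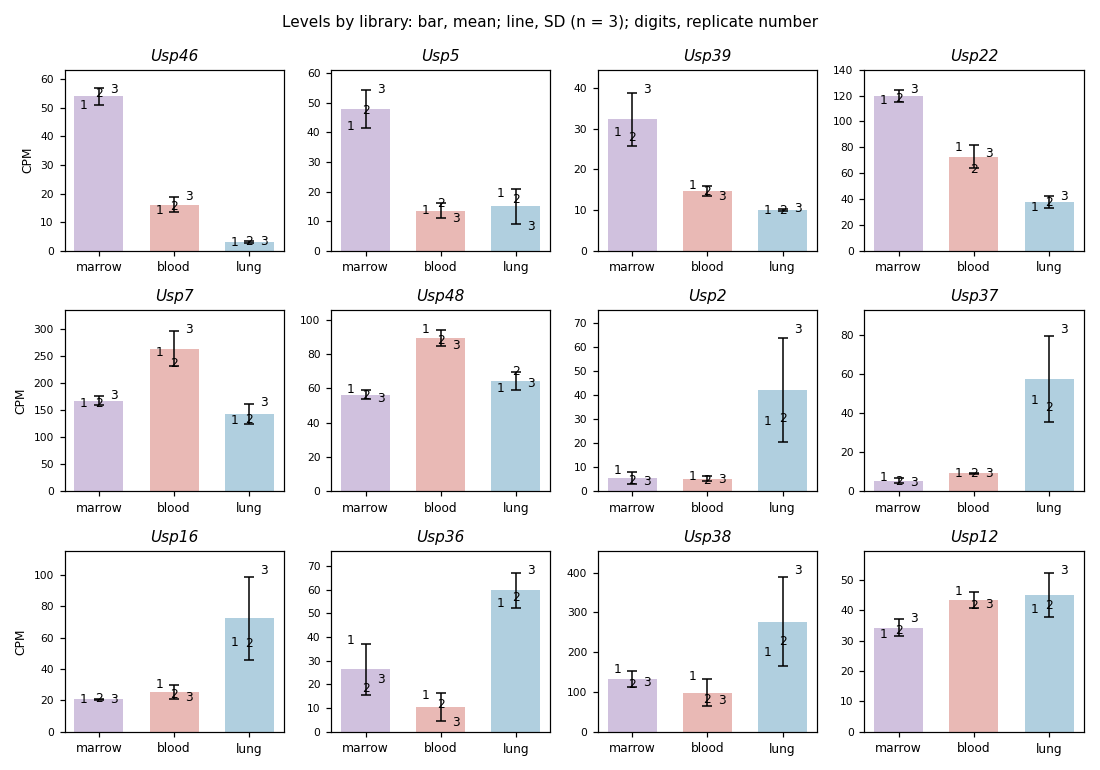
CPM of 12 members by tissue on linear axes from 0: bars are means, lines SD over n = 3 libraries, and digits mark the replicate. Usp46, Usp39 and Usp22 step down from bone marrow to lung, Usp7 and Usp48 are highest in blood, and in Usp2, Usp37, Usp16, Usp36 and Usp38 all 3 lung libraries lie above all others, replicate 3 highest.

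Usp37 had the largest rise of the family in lung. USP37 stabilises cyclin A and helps cells enter the DNA synthesis phase. Usp37 (Entrez gene 319651, chromosome 1, 74435510 to 74544286) stood at 6.82, 5.17 and 4.35 CPM in bone marrow, 9.20, 9.25 and 8.92 in blood and 46.6, 43.1 and 82.8 in lung. The 3 tissues did not overlap. The log2 fold change was 2.66 ± 0.27 in lung against blood (adjusted p = 4.25e-04) and 3.40 ± 0.28 in lung against bone marrow (5.15e-05), a 10.6-fold higher level. Using only lung replicate 3 these were 3.36 and 4.19. Markers of cycling precursors summed to 303, 148 and 31.1 CPM in bone marrow, 1.65 to 4.92 in blood and 24.6 to 44.5 in lung. The lung sums lay above those of blood, as Usp37 did, but the highest sum was in bone marrow, where Usp37 was lowest. The part of these markers in the result was not tested.

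The reads of Usp37 in lung were assigned almost wholly to variant 2, whose upstream bases are printed above. Variants 1 and 2 end at the same place and start 38465 bases apart. Variant 2 held 93.8%, 96.0% and 95.2% of the gene's per-length level in lung, from 2405, 2075 and 3173 reads. In bone marrow it held 7.41%, 66.5% and 30.2%, and in blood 31.0%, 92.9% and 40.6%, with 21 to 494 reads. The shares were alike among lung libraries and far apart among those of the other tissues. The deposited counts assign reads to variants by estimate, and 3 libraries against 3 cannot give an exact two-sided p below 0.1, so no test was made.

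The other members of DNA repair and the cell cycle moved less. Usp47, a protease of the repair enzyme DNA polymerase beta, was at 104, 104 and 106 CPM in bone marrow, 78.4, 68.5 and 73.8 in blood and 46.4, 50.5 and 63.5 in lung. The tissues were fully apart, and the log2 fold change was -0.51 ± 0.14 (adjusted p = 0.0323) in blood against bone marrow, -0.46 ± 0.14 (0.0375) in lung against blood and -0.97 ± 0.14 (8.63e-04) in lung against bone marrow. The first call was lost without any 1 of the bone marrow or blood libraries or lung replicate 2 (0.0532 to 0.423). The call in lung against blood was lost without any 1 library other than lung replicate 3 (0.0615 to 0.278), and was -0.03 with lung replicate 3 alone. With that library alone, lung against bone marrow was -0.45 (0.0986). Usp28 and Usp11 stayed between 2.24 and 14.0 CPM with no call, and Usp29 had no reads.

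Usp2 was the member with the largest rise in lung against blood. USP2 is a clock-controlled protease that also acts on cyclin D1. Usp2 (Entrez gene 53376, chromosome 9, 44067021 to 44095627) stood at 8.61, 4.39 and 4.04 CPM in bone marrow, 6.28, 4.35 and 5.03 in blood and 29.1, 30.3 and 67.4 in lung. Bone marrow and blood overlapped, and lung lay far above both. Usp2 rose by 3.02 ± 0.42 on the log2 scale against blood (adjusted p = 0.00141), 8.10-fold, and 2.90 ± 0.42 against bone marrow (7.93e-04). Lung replicate 3 alone gave 3.87 and 3.83.

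The variants of Usp2 differed between blood and lung. Variant 2 starts 17899 bases downstream of variant 3, at the stretch printed above, and codes for a protein with another start. In blood it held 95.0%, 86.6% and 93.1% of the per-length level, from 271, 211 and 204 reads. In lung, variant 3 held 66.2%, 75.8% and 72.9%, from 1116, 1183 and 2056 reads, and variant 2 held 28.2%, 14.8% and 21.9%. The libraries of the 2 tissues did not overlap in either share. Bone marrow had no common pattern: variant 3 held 58.9%, 28.9% and 100% there, from 70 to 224 reads. As for Usp37, these are estimated shares and were not tested.

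**Figure D4:**
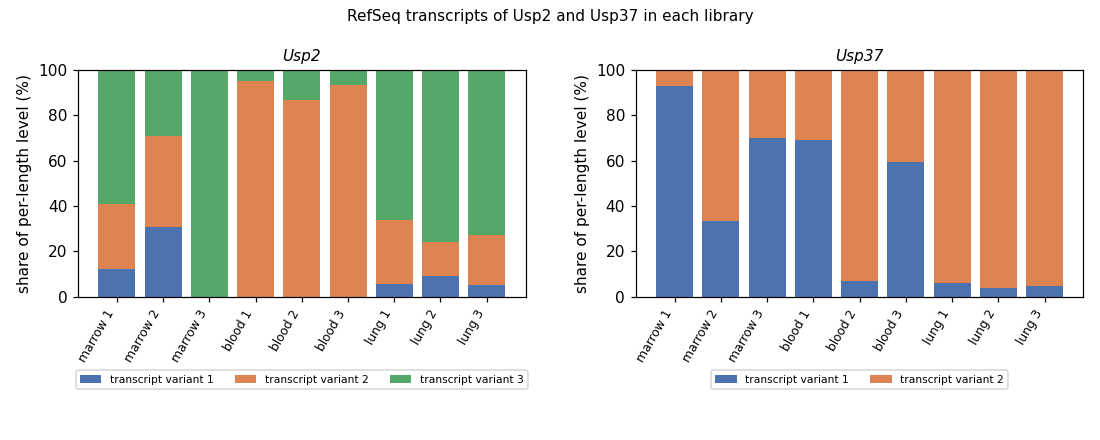
Share of the per-length level of Usp2 (left) and Usp37 (right) held by each RefSeq variant, in percent, for each of the 9 libraries. Lung libraries are alike in both genes, with variant 3 of Usp2 at 66.2% to 75.8% and variant 2 of Usp37 at 93.8% to 96.0%, whereas the bone marrow libraries differ among themselves.

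In the list of 8 members known from inflammatory and innate signalling, which holds Usp2, none was called in blood against bone marrow. Lung against blood had 2 rises and 1 fall, and lung against bone marrow 3 rises and 2 falls, where 13.2% and 15.7%, and 15.6% and 22.6%, of all tested genes were higher and lower. The list is too short to set apart from those shares. Usp38, which acts in interferon signalling, stood at 156, 118 and 124 CPM in bone marrow, 138, 80.2 and 77.9 in blood and 198, 227 and 406 in lung. Lung was above both tissues without overlap, by 1.49 ± 0.32 against blood (adjusted p = 0.00962) and 1.06 ± 0.32 against bone marrow (0.0292). The call against blood was lost without blood replicate 2 (0.0636) or 3 (0.0728), and that against bone marrow without any 1 of the bone marrow libraries or lung replicate 3 (0.0574 to 0.115). Both passed with lung replicate 3 alone, at 2.23 and 1.88. Of the exonic bases, 20.5% overlap the predicted gene Gm9725.

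The paralogs Usp4, Usp15 and Usp11 share their domain layout, and USP4 and USP15 are known from TGF-beta receptor signalling. Usp4 stood at 162, 180 and 196 CPM in bone marrow, 116, 107 and 133 in blood and 60, 67.1 and 93.7 in lung. The tissues did not overlap, with a log2 fold change of -0.69 ± 0.19 in lung against blood (adjusted p = 0.0244) and -1.28 ± 0.19 in lung against bone marrow (9.31e-04). The first was lost without bone marrow replicate 2, any 1 of the blood libraries, or lung replicate 1 or 2 (0.05 to 0.230). Lung replicate 3 alone gave -0.16 (0.645) and -0.66 (0.0662). Usp15 was at 104, 97.5 and 100 CPM in bone marrow, 71.6, 66.3 and 86.2 in blood and 63.6, 71.6 and 98.5 in lung. Bone marrow lay above blood, and lung reached into both. No comparison of Usp15 passed: lung against bone marrow was -0.37 ± 0.18 (0.139), and 0.24 (0.453) with lung replicate 3 alone.

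Usp25, which acts on TRAF adaptor proteins, was lower in lung than in bone marrow. It stood at 155, 159 and 149 CPM in bone marrow, 122, 111 and 122 in blood and 66.0, 85.3 and 105 in lung. The tissues were apart in that order, and lung against bone marrow gave -0.85 ± 0.17 (adjusted p = 0.00490). That call was lost without blood replicate 1 (0.0571) or 2 (0.0533), and with lung replicate 3 alone (-0.28, 0.315). Usp31, an inhibitor of NF-kappaB signalling, was low, at 2.31, 1.67 and 1.02 CPM in bone marrow, 3.68, 5.87 and 2.06 in blood and 4.30, 5.96 and 2.88 in lung. Lung lay above bone marrow (1.39 ± 0.49, 0.0494). That call was lost without any 1 of the bone marrow libraries, blood replicate 1, or lung replicate 1 or 2 (0.0583 to 0.167), and with lung replicate 3 alone (1.05, 0.266). Usp31 was lowest in replicate 3 of every tissue, as Usp14 and the marker sums named with it were, and their part was not tested.

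Of the 6 members of endosomes and receptor traffic, Usp33 alone was called. It was lower in both lung comparisons, where 15.7% (against blood) and 22.6% (against bone marrow) of all tested genes were lower. The list is too short to set apart from those shares. USP33 returns receptors such as the beta2-adrenergic receptor to the cell surface. Usp33 stood at 47.4, 45.9 and 44.2 CPM in bone marrow, 42.8, 41.0 and 42.7 in blood and 20.8, 24.2 and 26.7 in lung. Lung was far below both other tissues, by -0.82 ± 0.12 against blood (adjusted p = 0.00180) and -0.94 ± 0.12 against bone marrow (4.36e-04). Both calls held without any 1 library, but not with lung replicate 3 alone (-0.48, 0.0902 and -0.51, 0.0595). Of its exonic bases, 24.4% overlap predicted genes.

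Usp8, the endosomal protease that works with STAM and HGS on internalised receptors, stood at 77.4, 80.2 and 79.1 CPM in bone marrow, 92.8, 99.9 and 113 in blood and 73.8, 103 and 146 in lung. Blood was above bone marrow without overlap, and lung spread across both. Usp9x, a large protease of many targets, was at 86.7, 71.6 and 68.8 CPM in bone marrow, 76.6, 72.6 and 82.2 in blood and 85.0, 105 and 157 in lung. Neither was called: lung against bone marrow was 0.45 ± 0.22 (adjusted p = 0.144) for Usp8 and 0.61 ± 0.22 (0.0522) for Usp9x. Both passed with lung replicate 3 alone, at 1.16 (0.00369) and 1.32 (0.00342), so these values rest on which lung libraries are used.

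Usp10, which binds the stress granule protein G3BP1, followed the replicates more than the tissues. It stood at 3.46, 3.37 and 1.15 CPM in bone marrow, 4.69, 6.97 and 2.45 in blood and 8.43, 7.45 and 1.24 in lung. Replicate 3 was lowest in each tissue, and no comparison passed. Lung against bone marrow was 1.10 ± 0.71 (adjusted p = 0.248) with all libraries and -0.84 (0.486) with lung replicate 3 alone. Usp32 and Usp20 were not called either, with Usp32 at 343 to 355 CPM in bone marrow, 290 to 354 in blood and 156 to 326 in lung. Of the tested members, 8 were lowest in replicate 3 of every tissue (19.0%, against 18.9% of all genes tested): Usp6nl, Usp10, Usp11, Usp14, Usp24, Usp30, Usp31 and Usp45.

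None of the 3 members on organelle membranes was called with all libraries, and 3 genes are too few to set apart from the shares of all tested genes given above. Usp19 was at 237, 242 and 278 CPM in bone marrow, 255, 247 and 284 in blood and 237, 249 and 379 in lung. The tissues overlapped throughout. Lung replicate 3 alone, scaled by its TMM factor of 0.791, gave 0.71 against blood and 0.86 against bone marrow on the log2 scale. Usp30, which opposes the removal of damaged mitochondria, stood at 7.37, 7.41 and 6.42 CPM in bone marrow, 4.19, 5.70 and 3.26 in blood and 5.01, 6.22 and 1.79 in lung. Bone marrow lay above both other tissues. Lung against bone marrow was -0.70 ± 0.42 (adjusted p = 0.22), and with lung replicate 3 alone -1.71 (0.0170). Usp35 stayed between 4.36 and 7.19 CPM.

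Of the nucleolar and RNA members, Usp36 was higher in lung than in blood, and Usp39 and Usp42 were lower in lung than in both other tissues. USP36 is the protease of the nucleolus, where ribosomes are assembled. Usp36 stood at 38.7, 18.3 and 22.2 CPM in bone marrow, 15.5, 11.6 and 4.05 in blood and 54.3, 56.8 and 68.3 in lung. Blood was lowest and lung highest, with no overlap between any of the tissues. Lung against blood gave 2.52 ± 0.46 (adjusted p = 0.00474), which held without any 1 library and with lung replicate 3 alone (2.91, 0.0282). Lung against bone marrow (1.18 ± 0.44, 0.0632) and blood against bone marrow (-1.34 ± 0.45, 0.0622) missed the threshold.

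Usp39, the splicing factor with an aspartate codon in place of the cysteine, was lower in blood than in bone marrow and lower again in lung. It stood at 29.2, 28.0 and 39.8 CPM in bone marrow, 16, 14.7 and 13.4 in blood and 9.93, 9.81 and 10.4 in lung. The tissues did not overlap. The log2 fold change was -1.14 ± 0.16 in blood against bone marrow (adjusted p = 0.00156), -0.55 ± 0.16 in lung against blood (0.0317) and -1.69 ± 0.16 in lung against bone marrow (1.05e-04). The middle call was lost without any 1 of the blood libraries or lung replicate 1 or 2 (0.0789 to 0.119). Using only lung replicate 3, lung against blood was -0.31 (0.375) and lung against bone marrow -1.36 (0.00591). Usp42, a nuclear protease that binds p53, was at 14.3, 17.5 and 13.7 CPM in bone marrow, 14.8, 18.8 and 16.7 in blood and 7.14, 6.38 and 4.97 in lung. Lung was lowest without overlap, at -1.44 ± 0.19 against blood (0.00112) and -1.30 ± 0.19 against bone marrow (8.71e-04), also with lung replicate 3 alone (-1.57 and -1.34).

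The remaining called members were Usp48, Usp45, Usp53, Usp54, Usp40 and Usp6nl. Usp48, a protease of histone H2A, stood at 59.4, 55.8 and 53.9 CPM in bone marrow, 94.3, 88.0 and 85.3 in blood and 60.2, 70.0 and 62.9 in lung. Blood was highest, by 0.66 ± 0.12 over bone marrow (adjusted p = 0.00444), a call that held in every alternative. Lung against blood was -0.47 ± 0.12 (0.0152), lost without any 1 of the blood libraries (0.0891 to 0.122) and with lung replicate 3 alone (-0.32, 0.236). Usp45, which acts on the repair nuclease partner ERCC1, was at 14.3, 13.3 and 12.6 CPM in bone marrow, 17.1, 19.7 and 16 in blood and 9.52, 11.4 and 8.89 in lung. It fell in lung against blood by 0.82 ± 0.16 on the log2 scale (0.00541), and by 0.80 (0.0391) with lung replicate 3 alone.

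Usp53, known from tight junctions, stood at 16.8, 18.7 and 17.3 CPM in bone marrow, 22.7, 25.2 and 21.4 in blood and 8.93, 9.29 and 15.6 in lung. Blood was highest and lung lowest without overlap. Lung against blood was -1.04 ± 0.22 (adjusted p = 0.00803) and lung against bone marrow -0.64 ± 0.22 (0.0422). The first was lost without any 1 of the blood libraries (0.0531 to 0.0647). The second was lost without any 1 library other than lung replicate 3 (0.0764 to 0.181). Lung replicate 3 alone gave -0.38 (0.179) and 0.10 (0.728). Its paralog Usp54 stood at 5.13, 5.35 and 4.81 CPM in bone marrow, 8.39, 9.19 and 10.4 in blood and 6.34, 7.89 and 11 in lung. Bone marrow was lowest without overlap, at 0.87 ± 0.23 for blood (0.0268) and 0.72 ± 0.23 for lung (0.0353). Both calls were lost without any 1 of the bone marrow or blood libraries (0.0756 to 0.129 and 0.0563 to 0.115). The second was also lost without lung replicate 2 (0.0721) or 3 (0.0856). Lung replicate 3 alone gave 1.38 against bone marrow.

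Usp40 was at 2.65, 3.31 and 2.38 CPM in bone marrow, 5.10, 6.24 and 5.32 in blood and 4.03, 5 and 2.68 in lung. Blood lay above both other tissues, by 1.00 ± 0.30 over bone marrow (adjusted p = 0.0439), which was lost without any 1 library other than lung replicate 3 (0.0512 to 0.147). Usp6nl, whose product acts on the endosomal GTPase Rab5, stood at 3.03, 2.49 and 1.43 CPM in bone marrow, 8.09, 9.84 and 3.65 in blood and 10.9, 8.51 and 3.38 in lung. Lung was above bone marrow by 1.71 ± 0.52 (0.0292), lost without bone marrow replicate 2 or 3 or lung replicate 1 or 2 (0.0774 to 0.101) and with lung replicate 3 alone (0.81, 0.356).

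In 13 sets of paralogs, 0 stretches of 50 bases were common to the compared transcripts. The search covered exact matches between protein-coding transcripts only. Shorter or inexact matches and other copies, such as pseudogenes, were not searched, so it does not show that no read was shared. Lung and blood could also be compared in the RSEM gene counts deposited for those tissues, an estimate from the same libraries. The log2 fold changes of the 41 tested members with an RSEM value differed from those above by at most 0.27. Usp50, not tested above, had 0 reads in the blood and lung libraries there but 12 to 19 RSEM counts in each. It was not called with them (-0.13, adjusted p = 0.857). With RSEM counts 6 members were higher and 8 lower in lung, and the calls of Usp4, Usp14, Usp39, Usp47 and Usp48 were lost.

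Of 57 listed genes for other deubiquitinases, ubiquitin, its E1 enzymes and partners of the USPs, 55 were tested. In blood against bone marrow 3 were higher and 5 lower, in lung against blood 3 and 18, and in lung against bone marrow 4 and 21. The genes higher were 5.45%, 5.45% and 7.27% of the 55, against 8.34%, 13.2% and 15.6% of all tested genes. The genes lower were 9.09%, 32.7% and 38.2% of the 55, against 13.1%, 15.7% and 22.6% of all tested genes. The median log2 fold changes were -0.12, -0.14 and -0.22, against -0.05, 0.05 and 0.06 over all genes, and upper-quartile scaling moved the median of all genes by 0.15, 0.16 and 0.32. Of the calls, 4 of 8, 9 of 21 and 15 of 25 held without each single library. Mindy1, which cuts long ubiquitin chains, was at 603 CPM on average in bone marrow, 190 in blood and 143 in lung (-1.67 ± 0.21 in blood against bone marrow, adjusted p = 8.71e-04). Stambp, the endosomal protease AMSH, was at 16.5, 6.11 and 4.14 CPM, and lung against bone marrow was -2.0 ± 0.18 (7.35e-05). Hgs, which sorts ubiquitinated receptors on endosomes, fell in lung against blood by 1.17 ± 0.16 on the log2 scale (0.00128), and lost the call with lung replicate 3 alone. G3bp1, the partner of USP10, rose in lung against blood (1.72 ± 0.24, 0.00141) and bone marrow (2.27 ± 0.24, 1.68e-04). Both calls held in every alternative run for these listed genes, which did not include the RSEM counts. Eny2, a subunit of the SAGA deubiquitinase module around USP22, was called higher in lung against bone marrow (1.57 ± 0.47, 0.0275), but not without bone marrow replicate 2 or 3 or lung replicate 1 or 2, nor with lung replicate 3 alone. Uspl1, a USP-domain gene outside the naming rule that acts on SUMO, was lower in lung against blood (-1.37 ± 0.21, 0.00196), also in every alternative other than the RSEM counts, where it was not checked. Cyld, another such gene, which restrains NF-kappaB, was at 103, 90.7 and 162 CPM; it was called higher in lung against blood (0.84 ± 0.19, 0.0104), but not without any 1 of the blood libraries. Among the 6 ubiquitin and E1 genes, Uba1 was lower and Uba6 higher in lung against bone marrow. Uba1 lost its call without bone marrow replicate 3, any 1 of the blood libraries, or lung replicate 1 or 2, and Uba6 without any 1 library other than lung replicate 1. No gene for ubiquitin itself was called in any comparison.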

How the data were processed

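Per the labels' protocols, polyA libraries were made from FACS-sorted cells with a TruSeq kit, named both as standard and as stranded. Tools listed in the submitters' processing notes, without roles, are STAR, Bowtie2, RSEM, DESeq2 and StringTie 2.1.3b; the build is mm10. The sources used here give no sort markers and no strand setting. The authors deposited whole-number read counts and FPKM values in 9 libraries, per the file headers, for 36780 RefSeq transcripts. Within a library FPKM was the count per length times a constant. This cannot tell whether counts were scaled between libraries, and the table's name calls them normalised. They were used here as read counts. For blood and lung the authors also deposited RSEM expected counts, which were rounded for an alternative test and which the series table exceeded 1.87 to 1.90 times in total. Columns were matched to samples by the samples' own file names, whose numbers run 1 above those of the titles.

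Counts were summed by Entrez gene (24532), filtered with filterByExpr (13510 left), TMM-scaled and fitted with edgeR 4.0.16 in R 4.3.3 (robust quasi-likelihood, group means of 3 tissues, two-sided, Benjamini-Hochberg, threshold 0.05; common biological coefficient of variation 0.448). SE is the absolute log2 fold change over the square root of F. limma 3.58.1 and DESeq2 1.42.0 served alternatives; pandas 2.3.3, numpy 2.4.6 and matplotlib 3.10.9 were used in Python 3.11.15. The script was tested on simulated data. Alternatives were other tools, scalings, filters, FPKM with pseudocounts of 1 and 0.1, 6 libraries at a time, RSEM counts, a replicate block, leaving out each library, and lung replicate 3 as the only lung library. Values by library are given for called members with a mean of at least 5 CPM in some tissue, at most 24, plus Usp5, Usp7, Usp8, Usp9x, Usp10, Usp14, Usp15, Usp25, Usp30 and Usp39 whatever they did; Usp12 was added as the paralog of Usp46, and Usp1, Usp19, Usp31, Usp32 and Usp48 were named after their values were seen. Labels give the tissues the same replicate numbers. Deviations of same-numbered libraries from their tissue means correlated at 0.128 to 0.503 for lung and blood and 0.147 to 0.181 for lung and bone marrow. For blood and bone marrow they correlated at 0.0234 to 0.343. Differently numbered libraries were over 0.1 in 4 of 18 pairs and reached 0.435. These values do not settle whether the numbers pair the libraries. The main calls therefore come from the unpaired fit, and the replicate block is given as an alternative only. Pathway examples were at most 3 called genes a list, largest first. No example was given from the lists of OTU, UCH and Josephin deubiquitinases, which held called genes as well. The members and lists were chosen with earlier results of these data known.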

Additional observations from a re-analysis of the deposited data

How the results depend on the processing

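Members higher in blood against bone marrow (4) numbered 8 with DESeq2, 7 with upper-quartile scaling, 7 with the replicate number as a block, 10 with the 6 libraries of those tissues, 10 with FPKM at either pseudocount, and 1 to 7 when single libraries were left out. Members lower there (5) numbered 3 without a filter, 3 with FPKM at either pseudocount, and 3 to 7 with single libraries left out. In lung against blood, members lower (12) numbered 6 to 17 and members higher (7) 5 to 7 with single libraries left out, and 4 were lower with lung replicate 3 as the only lung library. In lung against bone marrow, members higher (9) numbered 15 with DESeq2, 17 with upper-quartile scaling, 14 with a stricter filter and 4 to 9 with single libraries left out; members lower (12) numbered 9 to 16, and 7 with lung replicate 3 alone. The median log2 fold change of members moved to 0.08 (DESeq2 size factors) and 0.19 (upper quartile) in blood against bone marrow and to 0.44 (upper quartile) in lung against bone marrow, where upper-quartile scaling moved the median of all genes by 0.15 and 0.32, and by 0.16 in lung against blood. It moved the share of calls that were higher from 39.0% to 52.6%, from 45.6% to 55.9% and from 40.9% to 59.3%; DESeq2 size factors gave 43.1%, 56.9% and 52.0%. Only lung replicate 3 alone turned a direction among the single values compared, for Usp10 (-0.84), Usp15 (0.24) and Usp53 (0.10) in lung against bone marrow. The cause was not tested.

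With the replicate number as a block, the single call that changed among 56 compared was Usp12 in lung against bone marrow (0.39, adjusted p = 0.0387 by edgeR), which then passed, and of the counts of members only that higher in blood against bone marrow moved over 1.5 times, to 7.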
